A study of Mus musculus with 4 samples.

Results

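The 39 protein-coding Hox genes of the mouse were examined in the open chromatin of adult heart nuclei. They are all the protein-coding genes of the GENCODE annotation whose symbol is Hoxa, Hoxb, Hoxc or Hoxd followed by a number, among 21755 protein-coding genes on chromosomes 1 to 19 and X. They lie in 4 clusters on mm10, with 11 Hoxa genes on chr6:52155590-52260880, 10 Hoxb genes on chr11:96194316-96368256, 9 Hoxc genes on chr15:102921103-103036852 and 9 Hoxd genes on chr2:74668310-74765142. ATAC-Seq, in which the transposase Tn5 cuts accessible DNA, was run on nuclei of whole hearts from male NuTRAP/Cdh5-Cre mice of 8 to 12 weeks on a C57BL/6 background. All 4 samples carry both alleles: Cdh5-Cre, driven by the promoter of the endothelial VE-cadherin gene, switches on the GFP tag of NuTRAP, and nuclei were sorted into GFP+ (endothelial) and GFP- (all other heart nuclei), with 2 samples of each. The analysis used 1 peak list per population, called by the authors from both of its samples together, with 78912 GFP- and 65008 GFP+ peaks. The lists hold no separate values for the replicates, so no difference below has a replicate check and no p-value is given. The authors brought the libraries to a common depth before calling, and the lists hold no read counts.

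HOX proteins are homeodomain transcription factors that give cells their position along the head-to-tail axis of the embryo, and they bind DNA together with cofactors of the PBX and MEIS families. Within a cluster the Hox genes all point the same way, and the paralog number falls from the 5′ end to the 3′ end, so that genes of the same number in different clusters are the closest relatives. Polycomb complexes hold the clusters closed in cells that do not use them, and the insulator protein CTCF binds at several places inside them. Genes at the low-numbered end act in the embryo in the progenitors of the outflow tract and the back of the heart.

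The size of a peak is given as a percentile rank (0 lowest, 100 highest) within its own list, by area. Area is a value that the authors' caller added up along the peak, and it is not a read count. A gene had a start peak where a peak came within 250 bp of any of its annotated transcript starts, and it received the rank of the largest such peak, or 0. The 39 genes have 87 annotated transcripts with 83 distinct starts. Ranks were compared between the lists, because areas depend on how strongly reads concentrate in the peaks of each population. In sorted nuclei taken in bulk, fewer nuclei with an open site and a weaker signal in each nucleus cannot be told apart.

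Most marker genes of endothelial, fibroblast and mural cells went the way of the sort's labels. All 8 endothelial markers had a start peak in the GFP+ list and 4 of 8 in the GFP- list, where Pecam1, Cldn5, Erg and Emcn had none. Cdh5, the gene whose promoter drives Cre, ranked 18.0 in GFP- and 85.3 in GFP+, while Tek, also endothelial, ranked 81.1 and 54.1. Of 8 fibroblast markers 6 had a start peak in GFP- and 2 in GFP+, and of 6 mural markers 6 and 3 did. The 6 cardiomyocyte markers had start peaks in both lists, at ranks of 90.2 to 99.9987 in GFP- and 86.0 to 99.9985 in GFP+. In each list 1 of 4 macrophage markers (Cd68), 1 of 3 glial markers and 1 of 3 epicardial markers (Wt1) had a start peak, and Csf1r, Adgre1 and Ptprc had none. How far other cell types in a gate enter the values of the Hox genes was not tested.

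Few Hox genes had an open start. In the GFP- list 10 of 39 Hox genes (25.6%) had a start peak, against 61.8% of all protein-coding genes, and in the GFP+ list 11 of 39 (28.2%) did, against 59.8%. A start peak stood in both lists at 8 genes (Hoxa4, Hoxa7, Hoxa10, Hoxb5, Hoxc9, Hoxd8, Hoxd9, Hoxd13). It stood in the GFP- list alone at 2 genes (Hoxa3, Hoxc13) and in the GFP+ list alone at 3 (Hoxa5 and Hoxb6 among them). Across all genes with a start peak in either list, 4.71% had it in the GFP- list alone and 1.46% in the GFP+ list alone. The other 26 Hox genes had no start peak in either population.

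The few peaks at Hox starts were also small. Their median rank was 24.96 in GFP- (range 4.41 to 68.9) and 35.0 in GFP+ (range 5.70 to 76.9), while the median over all protein-coding genes with a start peak was 90.5 and 89.3. Of these start peaks, 5 of 10 and 7 of 11 lay in the upper 75% of their list by area, and with the GFP- list shortened to its 65008 largest peaks, 6 Hox genes kept a start peak in it. Promoters rich in CpG are open in most tissues, and the Hox starts were not poor in CpG. Of the 39, 27 had a CpG-rich start (CpG observed over expected of at least 0.6 and GC of at least 50% within 250 bp of the most upstream start), and 10 of these 27 (37.0%) had a start peak in each list. Among all protein-coding genes with such a start the share was 91.4% in GFP- and 90.1% in GFP+.

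**Figure D1:**
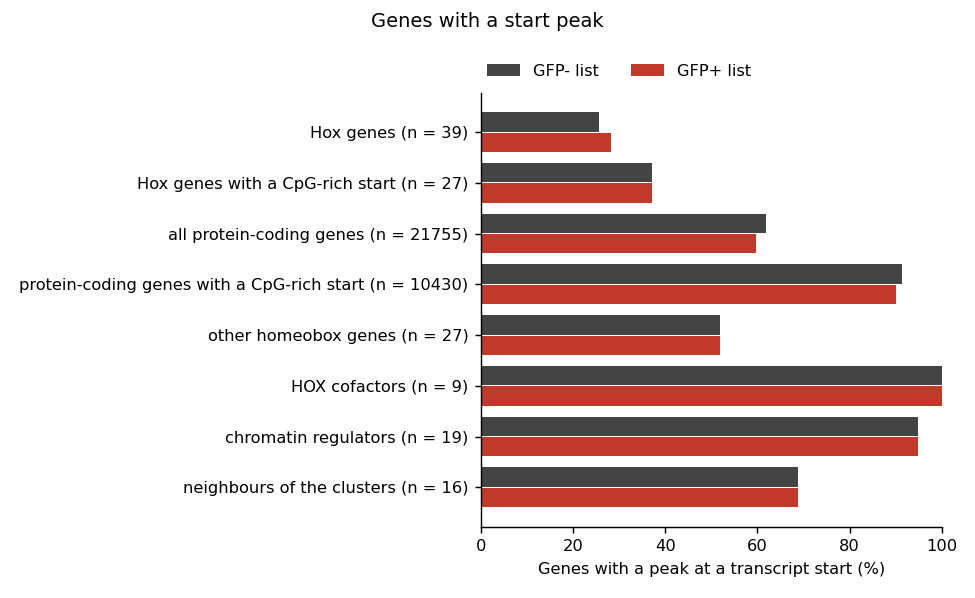
Percent of genes with a peak at a transcript start in the GFP- list (grey) and the GFP+ list (red), for the Hox genes and for comparison groups with their number of genes. The Hox bars reach 25.6% and 28.2%, and 37.0% among CpG-rich Hox starts, whereas all protein-coding genes reach 61.8% and 59.8%.

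Genes that act with HOX proteins, or on their clusters, stood on the opposite side. All 9 cofactor genes (Meis1, Meis2 and Pknox1 among them) had a start peak in both lists, with median ranks of 97.7 in GFP- (range 70.8 to 99.6) and 96.3 in GFP+ (range 5.76 to 99.6). Meis3 (74.99 in GFP- and 31.8 in GFP+) and Pbx4 (70.8 and 5.76) were lower in GFP+ by more than 20 points. Of 19 genes of Polycomb and Trithorax proteins and of related demethylases, 18 had a start peak in both lists at ranks of 78.6 to 99.4 in GFP- and 80.5 to 99.3 in GFP+. Kdm6b, which removes methyl groups from the histone mark laid down by Polycomb, had none. Of 27 homeobox genes outside the clusters, 14 (51.9%) had a start peak in each list, with median ranks of 85.7 and 73.4. This share lay above that of the Hox genes but below the 61.8% (GFP-) and 59.8% (GFP+) of all protein-coding genes. Irx3 (98.9 in both lists), Irx5 and Six5 were among those with a start peak, whereas Gsx2, Pdx1, the Cdx genes and the cluster neighbours Evx1 and Evx2 had none. Among the 16 protein-coding genes next to the clusters, 2 on each side, 11 (68.75%) had a start peak in both lists, at median ranks of 93.0 and 93.0. That is near the share of all protein-coding genes. Skap2, beyond the low-numbered end of the Hoxa cluster, ranked 97.5 and 98.3, and Lnpk, beyond Hoxd13, ranked 91.6 and 88.1.

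**Figure D2:**
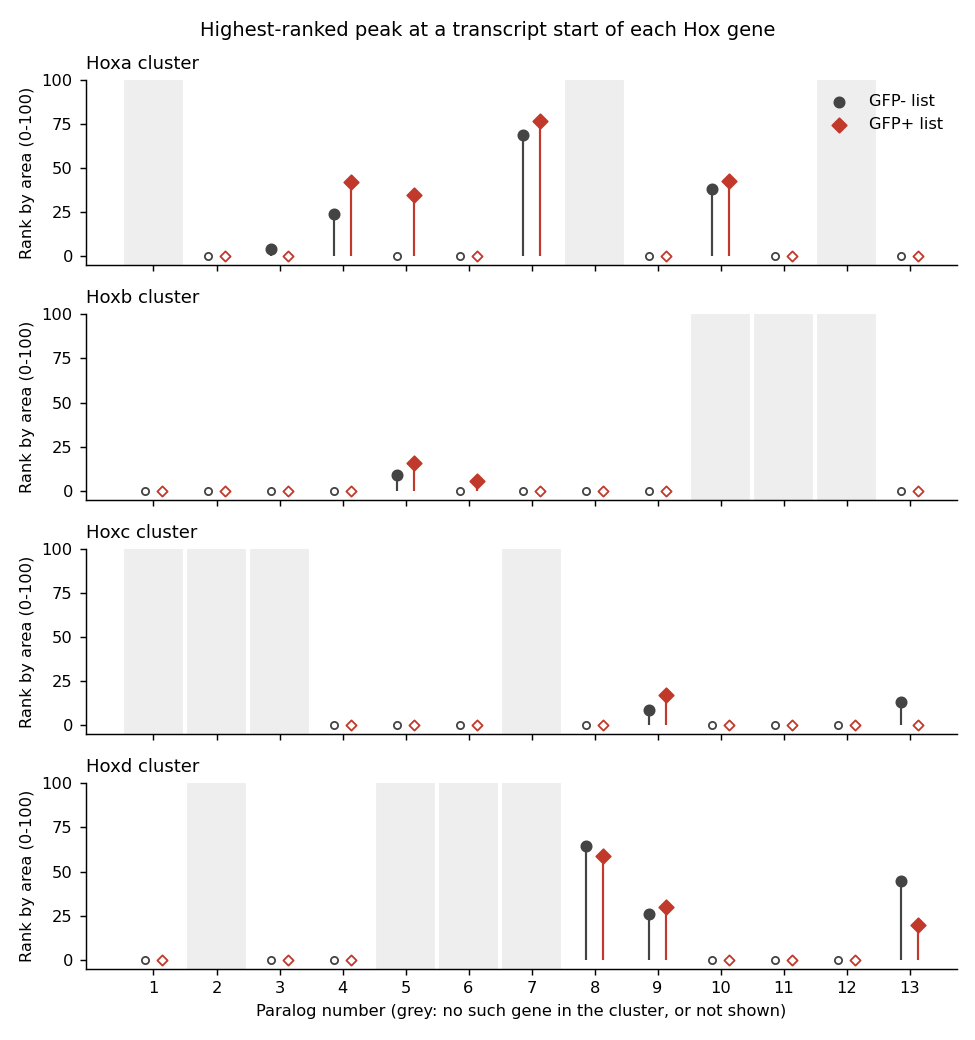
Rank by area (0 to 100) of the largest start peak of each Hox gene against its paralog number, with 1 panel per cluster, grey circles for the GFP- list and red diamonds for the GFP+ list. Open symbols at 0 are genes without a start peak and grey columns are paralog numbers that a cluster lacks or that are not shown. Hoxa7 is highest in both lists (68.9 and 76.9), and no Hoxb or Hoxc gene exceeds 17.2.

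In the Hoxa cluster, 4 of 11 genes had a start peak in GFP- and 5 in GFP+. Hoxa5, a gene known to restrain vessel growth, had a GFP+ start peak of 364 bp and rank 35.0, and the nearest GFP- peak was 6878 bp away. Hoxa4 ranked 24.0 in GFP- and 42.3 in GFP+, a gap of 18.3 points that falls just short of the 20 points used as a call. Hoxa7 had the largest start peak of all Hox genes in both populations, with areas of 1370 over 764 bp in GFP- and 1808 over 860 bp in GFP+ (ranks 68.9 and 76.9). Hoxa10, best known for its part in the uterus, ranked 38.1 and 42.7. Hoxa3, which the parathyroid and thymus need, had a GFP- peak of rank 4.41 at its most distant start, beside Hoxa7. Hoxa2, Hoxa6, Hoxa9 and Hoxa11 had no peak nearer than 2743 bp to a start in either list, and Hoxa13 had a GFP+ peak 292 bp away.

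The Hoxb cluster held 11 peaks in each list, of which 1 in GFP- and 2 in GFP+ were at a Hox start. Hoxb5, whose protein is known to activate the VEGF receptor gene Kdr, ranked 8.91 in GFP- and 15.9 in GFP+. Hoxb6 had a GFP+ peak of rank 5.70 at a second start inside the gene. For Hoxb4 a peak lay just outside the window, 275 bp from the start in GFP- and 274 bp in GFP+, in its 5′ untranslated region, with ranks of 8.92 and 33.9. The nearest peaks stood 684 bp (GFP-) and 4034 bp (GFP+) from a start of Hoxb3, 698 and 800 bp from one of Hoxb9, and 1007 and 1350 bp from one of Hoxb2. Hoxb7 and Hoxb8 had their nearest peaks at 1634 to 1912 bp, and Hoxb1 at 12099 bp in GFP- and 12270 bp in GFP+. Hoxb13, which stands far from the others, was 48257 and 48409 bp from any peak.

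The Hoxc cluster held the fewest peaks, 4 in each list. Of its 9 genes, 2 had a start peak in GFP- and 1 in GFP+. Hoxc9 had a start peak of rank 8.91 in GFP- and 17.2 in GFP+, at its second annotated start. Hoxc13, a gene of hair and nail, had a GFP- peak of 351 bp and rank 13.1 that ended 98 bp before its start, and the nearest GFP+ peak was 55888 bp away. Hoxc6 had peaks 758 and 782 bp from a start. The other genes were farther from any peak: Hoxc8 by 2702 and 2684 bp, Hoxc5 by 9742 and 9548 bp, Hoxc10 by 10389 and 10195 bp, Hoxc11 by 22758 and 22564 bp, Hoxc4 by 17285 and 19369 bp, and Hoxc12 by 15752 and 40234 bp. In each of these pairs the first value is that of the GFP- list.

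In the Hoxd cluster the same 3 genes had start peaks in both populations. Hoxd8 had the longest, 913 bp in GFP- and 1260 bp in GFP+, with ranks of 64.7 and 58.9. Hoxd9 ranked 26.0 and 30.04. Hoxd13, the gene of digits and genitalia, ranked 44.8 in GFP- and 19.9 in GFP+, with lengths of 797 and 484 bp. Hoxd12 and the gene pair Hoxd3 and Hoxd4, whose first starts lie 2 bp apart, had their nearest peaks 1742 to 3896 bp away, and Hoxd10 and Hoxd11 5612 to 6288 bp away. Hoxd1 was 32558 bp from a GFP- peak and 46806 bp from a GFP+ peak.

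Read along the paralog numbers, open starts did not gather at one end. Start peaks stood at 2 of 12 genes with numbers 1 to 4 in each list, at 3 and 5 of 11 with numbers 5 to 8, and at 5 and 4 of 16 with numbers 9 to 13 (GFP- first). None of the 7 genes with number 2, 11 or 12 had a start peak. Number 9 was open in 2 of its 4 clusters, Hoxc and Hoxd, in both populations. Number 13 was open at Hoxd13 in both, at Hoxc13 in GFP- alone, and at Hoxa13 and Hoxb13 in neither. At the low-numbered end, Hoxa4 stood at 42.3 in GFP+, while Hoxb1, Hoxd1, Hoxa2 and Hoxb2 had no start peak.

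More Hox starts ranked higher in GFP+ than lower, by differences that were mostly small. Over the 13 genes with a start peak in either list the median difference, GFP+ minus GFP-, was 5.70 points, with 9 genes higher and 4 lower in GFP+. A 95% interval over these genes from order statistics ran from -5.79 to 18.3. Neighbouring genes are not replicates of a population, so this interval does not test a difference between the populations. Over all 13643 protein-coding genes with a start peak in either list the median was -0.814 points, with 3903 higher and 9740 lower. Past 20 points, 2 Hox genes were higher (Hoxa5 among them), where 1.94% of all genes were, and 1 was lower (Hoxd13, by 24.9 points), where 7.33% were. With a window of 1000 bp these counts became 4 and 2, and with lists of equal length 3 and 0. The values over all genes are not on equal terms with those of the Hox genes. Over all genes with a GFP- start peak the median rank was 90.5, so most could not rise by more than 20 points. Hox start peaks, with a GFP- median of 24.96, had more room to rise and less to fall. How far this enters the comparison was not tested. Among the 8 genes with a peak in both lists, 6 differed by less than 10 points.

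**Figure D3:**
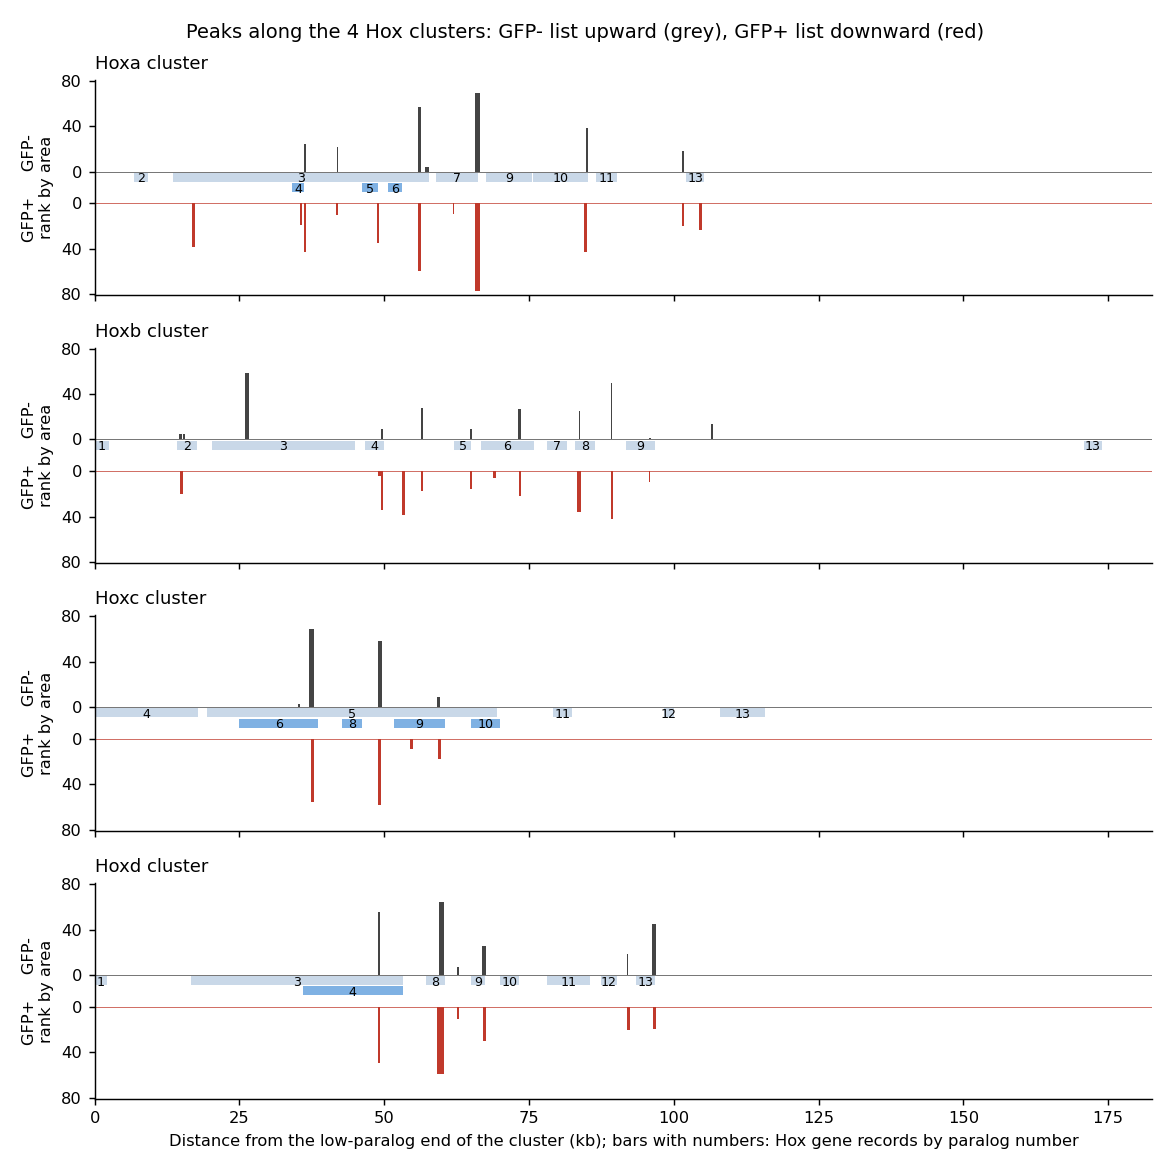
Peaks along the 4 clusters, drawn from the end with the lowest paralog number, with GFP- ranks upward (grey) and GFP+ ranks downward (red). Blue bars are the records of the Hox genes with their paralog numbers, and peaks under 250 bp are drawn 250 bp wide; 1 gene is not shown. Most peaks of one list have a partner in the other, the Hoxc cluster holds 4 peaks in each list, and the stretch before Hoxb13 is empty in both.

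The clusters as a whole held 29 GFP- and 33 GFP+ peaks in their 491.8 kb. The GFP- start peak of Hoxc13 ends 98 bp outside the Hoxc span, so it is counted with the flank and not among these. Peaks covered 2.56% of this sequence in GFP- (12609 bp) and 2.97% in GFP+ (14611 bp), against 1.97% and 1.58% of chromosomes 1 to 19 and X. The Hoxa cluster was the densest and differed most, with 8 peaks covering 3.28% in GFP- and 12 covering 5.15% in GFP+. In the others the lists differed less, with 2.29% and 2.17% in Hoxb (11 peaks each), 1.86% and 1.83% in Hoxc (4 each), and 3.12% and 3.40% in Hoxd (6 each). Pooled over the clusters, coverage of the flanks was lower. The 100 kb beyond the low-numbered ends were covered to 1.56% in GFP- and 0.987% in GFP+, and those beyond the high-numbered ends to 0.790% and 0.494%. An exception was the low-numbered flank of Hoxb, covered to 2.40% in GFP- and 0.510% in GFP+. The longest stretch without a peak inside a span ran from the Hoxb13 start toward Hoxb9, with 67193 bp in GFP- and 78007 bp in GFP+. The next, of 56082 and 55888 bp, lay at the high-numbered end of Hoxc. Both are cut at the edge of the span. Beyond it, the nearest peak to the Hoxb13 start was 48257 bp (GFP-) and 48409 bp (GFP+) away.

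**Figure D4:**
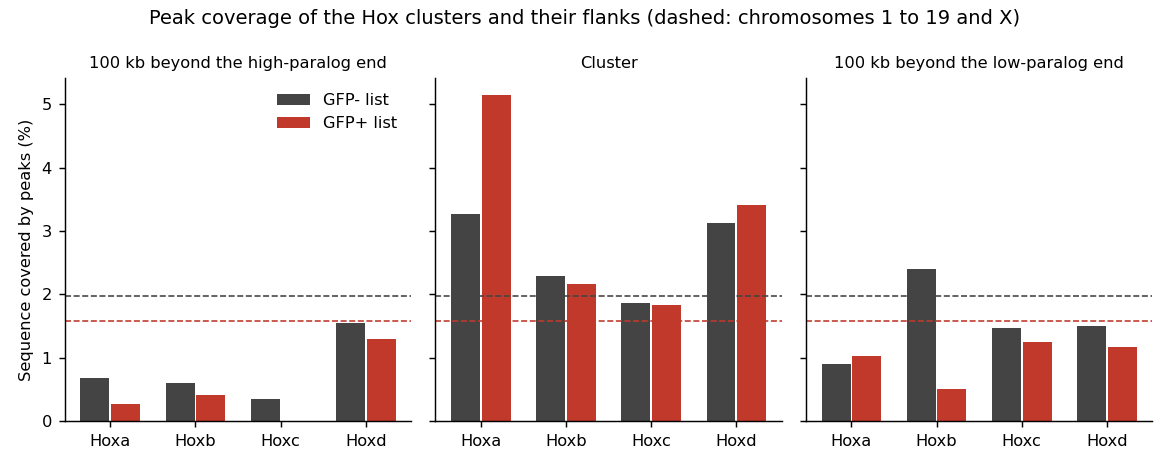
Percent of sequence covered by peaks in the 100 kb beyond the high-numbered end, in the cluster and in the 100 kb beyond the low-numbered end of each Hox cluster (GFP- grey, GFP+ red), with dashed lines for the whole of chromosomes 1 to 19 and X. The Hoxa cluster reaches 3.28% in GFP- and 5.15% in GFP+, and 7 of the 8 flanks of the GFP- list lie under its dashed line at 1.97%.

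Most of these peaks were away from the starts. In GFP-, 20 of 29 touched no start window of a Hox gene, and in GFP+ 21 of 33 did not. Introns held 9 and 7 of them, sequence between annotated genes 4 and 5, noncoding exons 4 and 2, coding exons 1 and 4, and untranslated regions 2 and 3. Of the 20 GFP- peaks, 17 (85.0%) overlapped a GFP+ peak, against 64.5% of GFP- peaks away from protein-coding starts in the genome. Under other settings the Hox share ran from 66.7% (upper 75% of peaks by area) to 92.9% (window of 1000 bp). At an overlap of 50% of both peaks it was 70.0%. The genome share was taken at the main setting only, so how firmly the 2 shares differ was not tested. In the other direction 15 of 21 (71.4%) overlapped, against 83.7%. With the lists cut to the upper 75% of peaks by area, 9 remained in each, and with lists of equal length 12 remained in GFP-.

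Merged across the lists, the peaks formed 37 open regions, of which 24 were in both lists, 4 in GFP- alone and 9 in GFP+ alone. The GFP- start peak of Hoxc13, just outside the Hoxc span, is not among them. Over the 86602 regions formed the same way on chromosomes 1 to 19 and X the shares were 62.3% in both, 27.6% in GFP- alone and 10.1% in GFP+ alone. All 6 regions of the Hoxd cluster were in both, as were 7 of 13 in Hoxa, 8 of 13 in Hoxb and 3 of 5 in Hoxc. Of the 9 regions in GFP+ alone, 5 lay in Hoxa and 3 in Hoxb. Past 20 points, 6 of the 37 regions were higher and 2 lower in GFP+, against 7.63% and 23.8% of all regions. Peaks of the clusters ranked low (medians of 24.0 in GFP- and 23.1 in GFP+), so these regions had more room to rise and less to fall than others. The higher ones included the start of Hoxa5, an untranslated exon of Hoxa3 at the start of the antisense gene Gm15050 (38.6, none in GFP-), the coding first exon of Hoxa13 (23.1, none), the 5′ region of Hoxb4 (33.9 against 8.92) and a stretch between Hoxb5 and Hoxb4 (38.4, none). The lower ones were the start of Hoxd13 and an intron of Hoxb3 at the start of the antisense gene Gm11536, where a GFP- peak of 693 bp and rank 58.5 had no GFP+ partner. The latter was the highest-ranked of the regions found in 1 list alone.

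**Figure D5:**
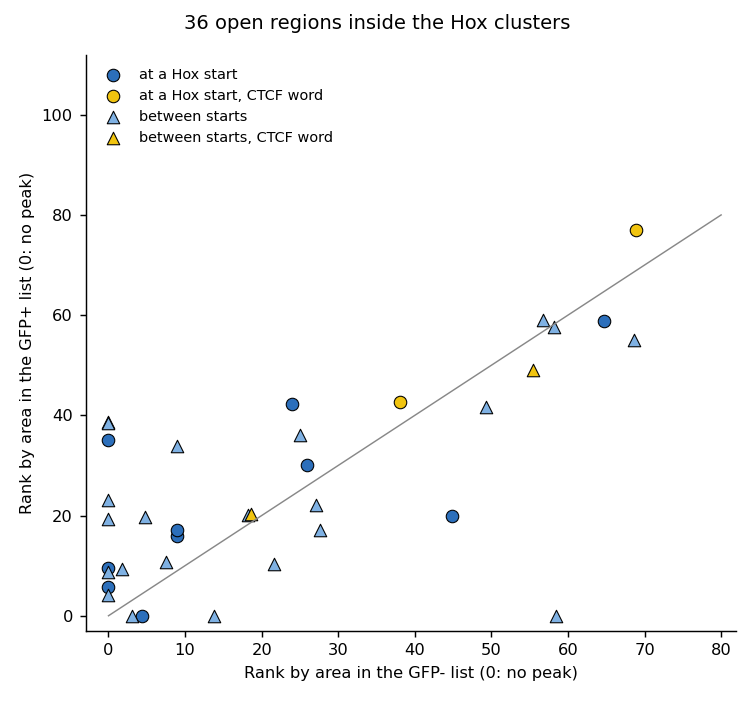
Rank by area in the GFP- list against that in the GFP+ list for 36 of the 37 open regions inside the clusters, with 0 for no peak. Circles are regions at a Hox start, triangles regions between starts, yellow marks a CTCF word and the line marks equal ranks. The Hoxb3 intron (58.5 and 0) lies far from the line, and the 4 yellow regions lie close to it.

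Several shared regions between starts ranked above the median of the Hox start peaks in both lists. Between Hoxa6 and Hoxa7, in introns of Hoxa3 and Hoxaas3, a peak ranked 56.7 in GFP- and 59.1 in GFP+. Between Hoxc9 and Hoxc8 one ranked 58.2 and 57.7, and in an intron of Hoxc6 another ranked 68.6 and 55.1, the highest rank of the GFP- list between starts. An exon of the antisense gene Hoxd3os1, inside the records of Hoxd3 and Hoxd4, held a peak of rank 55.4 and 49.1. The peak between Hoxb9 and Hoxb8 was short, 223 bp in GFP- and 226 bp in GFP+, and ranked 49.3 and 41.6 by area but 86.5 and 73.9 by area per bp.

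The next sequences show 120 bp around the GFP- summit of 5 shared peaks outside exons, on the plus strand of GRCm38, with each CpG in capitals. They are the start of Hoxa4 and 4 of the regions between starts just described. These windows differ in CpG from 23 sites at Hoxa4 to 3 between Hoxc9 and Hoxc8. Between Hoxb9 and Hoxb8 the GFP+ summit lay 130 bp away, outside the printed bases.

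Hoxa4 start, chr6:52191874-52191993: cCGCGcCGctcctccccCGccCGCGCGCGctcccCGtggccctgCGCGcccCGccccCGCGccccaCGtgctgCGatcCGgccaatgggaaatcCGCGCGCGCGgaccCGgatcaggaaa

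Hoxa6 to Hoxa7, chr6:52211673-52211792: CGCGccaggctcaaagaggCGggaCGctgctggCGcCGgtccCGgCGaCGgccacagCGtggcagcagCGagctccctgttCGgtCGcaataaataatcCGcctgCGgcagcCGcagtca

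Hoxb9 to Hoxb8, chr11:96278960-96279079: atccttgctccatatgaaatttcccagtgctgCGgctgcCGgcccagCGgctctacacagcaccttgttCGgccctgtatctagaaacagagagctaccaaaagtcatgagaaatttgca

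Hoxc9 to Hoxc8, chr15:102987616-102987735: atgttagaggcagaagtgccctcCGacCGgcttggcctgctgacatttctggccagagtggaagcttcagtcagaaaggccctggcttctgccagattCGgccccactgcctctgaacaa

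Hoxc6 intron, chr15:102999247-102999366: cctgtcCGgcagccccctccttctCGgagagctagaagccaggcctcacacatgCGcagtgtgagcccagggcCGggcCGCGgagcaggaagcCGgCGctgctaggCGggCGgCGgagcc

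Regions found in 1 list alone are shown the same way, around the summit in that list. First come the GFP+ peaks between Hoxb5 and Hoxb4 and at an inner start of Hoxa7 (rank 9.55). The GFP- peaks in introns of Hoxb3 and Hoxc6 follow. The windows hold 12, 9, 9 and 1 CpG in that order. The Hoxc6 peak was weak, with 187 bp and rank 3.10.

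GFP+ alone, Hoxb5 to Hoxb4, chr11:96314765-96314884: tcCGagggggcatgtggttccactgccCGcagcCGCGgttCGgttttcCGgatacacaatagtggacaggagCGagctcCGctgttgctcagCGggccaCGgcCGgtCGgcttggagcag

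GFP+ alone, inner start of Hoxa7, chr6:52217546-52217665: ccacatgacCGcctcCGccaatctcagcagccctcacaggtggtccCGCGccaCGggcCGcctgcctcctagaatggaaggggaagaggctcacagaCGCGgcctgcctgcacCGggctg

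GFP- alone, Hoxb3 intron, chr11:96342098-96342217: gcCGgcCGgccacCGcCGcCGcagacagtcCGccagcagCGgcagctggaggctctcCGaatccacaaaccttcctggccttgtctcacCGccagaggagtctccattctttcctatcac

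GFP- alone, Hoxc6 intron, chr15:103001497-103001616: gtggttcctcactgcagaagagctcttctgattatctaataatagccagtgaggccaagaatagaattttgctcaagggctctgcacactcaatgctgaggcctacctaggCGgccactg

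The peaks of the clusters were richer in CpG and smaller than other peaks. In the 200 bp around the summit the median GC was 63.5% in GFP- and 63.0% in GFP+, against 52.5% and 53.0% over all peaks, and the median CpG observed over expected was 0.804 and 0.855, against 0.261 and 0.278. Their median rank was 24.0 and 23.1, where the median over all peaks is 49.99 and 49.98, and 22 of 29 and 27 of 33 ranked below 50. The GFP+ peak at the Hoxa7 start was the 1 peak of the clusters with a rank of 75 or more. Peaks at Hox starts had median lengths of 657 and 518 bp, against 1124.5 and 1053 bp for peaks at all protein-coding starts. They were also low for their length: by area per bp their median rank was 19.4 in GFP- and 19.1 in GFP+, against 26.0 and 32.5 by area. Hoxd8 in GFP+ ranked 6.76 by area per bp, where it ranked 58.9 by area.

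Words of 6 DNA-binding factors were searched on both strands of the 200 bp around each summit. The CTCF word (CCA, 2 free bases, AG, 2 free bases, GGC) was in 4 of 29 GFP- peaks (13.8%) and 4 of 33 GFP+ peaks (12.1%), against 8.25% and 9.24% of all peaks. These were the same 4 regions in both lists: the starts of Hoxa7 and Hoxa10, the stretch between Hoxd13 and Hoxd12, and the Hoxd3os1 exon. Their ranks differed between the lists by 1.60 to 7.99 points. The MEIS word CTGTCA was in 4 (13.8%) and 2 (6.06%) peaks of the clusters, below the 17.9% and 18.1% of all peaks. The HOX-PBX word TGATTNAT, the ETS word CAGGAAGT, the TCF21 word AACAGCTG and the retinoic acid receptor word (GNTCA repeated after 6 free bases) were in none, where the shares over all peaks were 1.70% and 1.45%, 2.89% and 3.18%, 3.02% and 1.87%, and 0.664% and 0.642%. A match is a run of letters and not a measured binding site. The 4 CTCF matches are printed as 30 bases in the direction of the word, with the word in capitals.

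Hoxa7 start, chr6:52221800-52221829 (minus strand): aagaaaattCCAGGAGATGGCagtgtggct

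Hoxa10 start, chr6:52240532-52240561 (minus strand): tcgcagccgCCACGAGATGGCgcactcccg

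Hoxd13 to Hoxd12, chr2:74673169-74673198 (minus strand): gccaaacgcCCAGGAGATGGCgagcgtgct

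Hoxd3os1 exon, chr2:74715912-74715941 (plus strand): gagctttgtCCAGGAGGAGGCgctgtagga

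Of the promoters held by RefSeq (GRCm38.p6, 250 bases before to 50 after a start), 24 matched 22 of the Hox genes. The HOX-PBX word was in 2 of these 24, those of Hoxa2 and Hoxd11 (8.33%, against 3.22% of 32851 promoters), and the MEIS word in those of Hoxa2 and Hoxa3 (8.33% against 19.2%). None held the CTCF, ETS, TCF21 or retinoic acid receptor word, which were in 2.43%, 3.33%, 1.59% and 0.861% of all.

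Of 43 genes inside the clusters that are not protein-coding, 16 of them annotated as miscellaneous RNA, 7 had a start peak in GFP- and 6 in GFP+, against 11.8% and 10.5% of the 32088 such genes on chromosomes 1 to 19 and X. Beside Gm15050, Gm11536 and Hoxd3os1 these included Gm28793 at Hoxd9 (26.0 and 30.04), 9530018H14Rik between Hoxa11 and Hoxa13 (18.2 and 20.1) and Gm53 between Hoxb13 and Hoxb9 (13.7 in GFP- alone). ATAC-Seq has no strand, so a peak cannot be assigned to 1 of 2 overlapping genes. Hotair, in the Hoxc cluster, was 23057 bp from a GFP- peak and 29261 bp from a GFP+ peak.

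None of the 7 microRNA genes of the clusters had a peak at its annotated start. Of all genes that are not protein-coding, 11.8% (GFP-) and 10.5% (GFP+) did, and 7 genes are too few to differ from that. The share over all microRNA genes was not taken. The annotated records are short, and starts of longer primary transcripts were not examined. RefSeq (GRCm38.p6) holds 6 of the microRNA genes, without Gm44463. The mature 5p sequences of the miR-10 and miR-196 families, found in more than 1 cluster each, are printed with the seed (bases 2 to 8) in capitals. The miR-10 genes share the seed ACCCUGU and the miR-196 genes the seed AGGUAGU, and both families are known to target Hox messages.

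mmu-miR-10a-5p: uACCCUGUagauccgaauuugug

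mmu-miR-10b-5p: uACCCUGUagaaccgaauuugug

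mmu-miR-196a-5p: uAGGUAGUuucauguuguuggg

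mmu-miR-196b-5p: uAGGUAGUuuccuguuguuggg

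Gm44463, between Hoxd9 and Hoxd8, was 1153 bp from a GFP- peak and 1176 bp from a GFP+ peak. Mir10a, between Hoxb5 and Hoxb4, was 1268 and 1267 bp from the peak in the 5′ region of Hoxb4. Mir10b in the Hoxd cluster was 9796 and 9896 bp from a peak. Mir196a-1, Mir196a-2 and Mir196b were 3355 and 7058 bp, 3751 and 3557 bp, and 7987 and 7968 bp away. Mir615, in the Hoxc cluster, was 13261 and 15345 bp away.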

How the data were processed

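ATAC-Seq libraries of sorted GFP- and GFP+ heart nuclei (2 samples each) were trimmed, mapped to mm10 with Bowtie2 2.3.5.1 per the labels, filtered with SAMtools, cleared of duplicates with Picard, downsampled to a common depth and passed to Genrich by the authors, who deposited 1 peak list per population. The deposited area is a signal summed over the peak by the authors' caller, with a minimum of 200. For each summit the authors' caller gave a −log10 p-value. The deposited score, 1000 times the area per bp and limited to 1000 by the authors' caller, was used only to describe the files: 83.9% and 82.0% of peaks were at the limit. Calling on both replicates removes their spread, and the longer GFP- list admits more small peaks.

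Here each peak was ranked by area within its list with scripts tested on simulated peaks (Python 3.11.15 with pysam 0.24.0, scipy 1.17.1, pandas 2.3.3, numpy 2.4.6 and matplotlib 3.10.9). Transcript starts came from GENCODE M21 and sequence from GRCm38.p6, whose chromosomes match mm10, without chromosome Y and the mitochondrial genome. Start peaks, calls (over 20 rank points, described with no test) and words followed fixed definitions, and peaks were shared at an overlap of 1 bp. Cluster spans run between the outermost Hox gene ends. The Hox genes are named, with the noncoding genes inside the clusters, the 2 nearest protein-coding genes on each side, and fixed lists of cofactors, chromatin regulators, other homeobox genes and cell type markers. A few of these genes are not reported here and enter only the counts. The members and lists were chosen with earlier results of these data known. Alternatives covered starts, window, ranking, list length, span and overlap.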

Additional observations from a re-analysis of the deposited data

How the results depend on the processing

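Of 60 values of 12 results under other settings, 46 stayed within fixed limits. The limits were 1.5 times the main count or covered share, and the 95% interval of the main median or overlap share. These intervals are wide and hold no replicate spread. Only the median difference could change sign, as counts and shares cannot, and it stayed above 0. The median rank difference at Hox starts ranged from 2.07 points (ranked by area per bp) to 17.2 points (lists of equal length). With only the upper 75% of peaks by area, start peaks stood at 5 Hox genes in GFP- and 7 in GFP+ and at 1 gene in GFP- alone, 9 peaks lay between starts in each list, and the clusters were covered to 1.55% and 1.69%, since fewer peaks enter by construction. With the GFP- list shortened to the length of the GFP+ list, 6 genes had a start peak in GFP-, 0 in GFP- alone and 5 in GFP+ alone, 0 genes were lower in GFP+ by more than 20 points, and 12 GFP- peaks lay between starts. A window of 1000 bp gave 2 genes lower and 4 higher in GFP+ by more than 20 points. Taking the 5′ end of the gene record alone left 9 start peaks in each list, without Hoxc9 in both and Hoxb6 in GFP+. No paired analysis was possible because each list was called from both replicates together, and for the same reason no replicate could be left out. The lists hold no read counts and the labels give 100 to 50000 nuclei per library, so a missing peak means only that none was called.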
